A study of Mus musculus with 12 samples.

Results

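What loss of p53 did to transcripts of the small intestine was read from all 12 of the 12 arrays of the study, by setting the 6 p53-null intestines against the 6 intestines with wild-type p53 and keeping Apc status as a block. The study compared induced mouse intestines that lacked Apc, p53, both or neither, so that the effect of losing Apc could be read with and without p53. The p53-null arrays were 3 from p53-deficient mice (Cre+Apc+/+p53-/-) and 3 from double-deficient mice (Cre+Apcfl/flp53-/-), and their counterparts were 3 from control mice (Cre+Apc+/+p53+/+) and 3 from Apc-deficient mice (Cre+Apcfl/flp53+/+). All 4 genotypes carried the AhCre transgene and received 3 injections of 80 mg/kg β-naphthoflavone, given within 1 day by the sample labels and daily by the study's methods, and small intestine was taken at day 5. In this model Cre is driven by an inducible Cyp1a promoter, so that Apc is lost only in cells in which the promoter responds, whereas p53 is absent from every cell of the null mice. RNA came from intestinal tissue as a whole, and for a change in these samples fewer cells of a type and less RNA per cell cannot be told apart.

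p53 is a transcription factor that is held at low levels by the ubiquitin ligase Mdm2 and is stabilised when DNA is damaged or an oncogene is active. It then binds paired half-sites in promoters and first introns and raises genes that stop the cell cycle, such as Cdkn1a (p21), or drive cell death, such as Bbc3 (Puma). In the mouse small intestine it is best known for the death of crypt cells after irradiation.

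Each array gave a signal and a detection p for each probe set, the group of oligonucleotides that reads 1 transcript. Values below are scaled signals, that is, linear signals after each array's mean log2 signal was brought to the same level, and a probe set is called detected where its detection p was under 0.05. Detection values are used for 9 arrays, since those of the double-deficient group could not be tied to single mice. Between 20508 and 21139 probe sets were detected on the p53-deficient arrays and between 18388 and 21833 on the arrays with wild-type p53. As a check of the labelled tissue, Fabp1, the fatty acid binding protein of enterocytes, was detected on all 9 arrays and read 3636 to 12658 on the p53-null arrays and 1205 to 8919 on the others. Axin2, a Wnt target that rises when Apc is lost, read 1124 to 2856 in the 6 intestines with deleted Apc and 313 to 547 in the 6 with intact Apc. Array 3 of the double-deficient group and array 3 of the control group stood apart by transcripts of exocrine pancreas, with a median log2 scaled signal over 14 pancreas genes of 11.29 and 12.62, against 5.30 to 6.10 on the other 10 arrays, so counts are also given without these arrays. The ratio of 3′ to 5′ signal of the actin control probe sets, a sign of RNA quality, was 1.15 to 1.31 in p53-null and 1.15 to 1.41 in wild-type intestines. With Apc intact it was 1.26 to 1.31 in p53-deficient against 1.16 to 1.21 in control intestines, without overlap. The same ratio of Gapdh read 0.89 to 1.05 against 0.78 to 0.80 in these groups. Without Apc both ratios overlapped, with Gapdh at 0.75 to 1.07 in double-deficient against 0.83 to 0.96 in Apc-deficient intestines. Other array measures also separated the compared groups. The BioB spike control read 92.6 to 134.6 in p53-deficient against 234.5 to 327.6 in control intestines. It read 406.1 to 488.6 in double-deficient against 246.9 to 347 in Apc-deficient intestines. Median signal before scaling was 81.6 to 105.1 against 121.2 to 153.6, and 96 to 156.5 against 75.6 to 95.9, in the same order. Whether these differences bear on the calls was not tested. A letter code and a digit code in the array names follow genotype: each digit code holds 1 genotype and the letters split by p53 status, so that whatever the letters stand for and p53 status cannot be told apart.

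Transcripts of the deleted gene were examined first, as a check of the labels. Probe set 1426538_a_at of Trp53 had a scaled signal of 10.2, 12 and 7.95 in p53-deficient intestines, against 190.3, 203 and 274 in controls, and 3.55, 15.1 and 3.90 in double-deficient intestines, against 272, 392 and 369 in Apc-deficient intestines. It was detected on none of the 3 p53-deficient arrays and on all 6 with wild-type p53. The difference over both backgrounds came to -5.16 ± 0.38 (SE), adjusted p = 0.000344 on the log2 scale, the groups did not overlap, and with Apc intact the signal of p53-deficient intestines was lower by at least 22.2-fold. At least N-fold means that the brighter group was set, on each undetected array, against the probe set's own signal or a floor, whichever was higher. The floor was the lowest signal on that array among probe sets detected on every array of its p53 status with a detection value. Where the own signal was the higher, as for Trp53, the bound equals the measured difference. It is a bound for detection only, allows for no spread between mice, and is also given for differences that were not called. The groups were control against p53-deficient where no p53-deficient array detected the probe set. Where no wild-type array did, they were all 6 p53-null against all 6 wild-type arrays. A further Trp53 probe set, 1427739_a_at, was still detected on 2 of the 3 p53-deficient arrays: it read 121, 123 and 160.3 in p53-deficient intestines, against 314, 356 and 428 in controls, and 170.2, 242 and 233 in double-deficient intestines, against 434, 609 and 687 in Apc-deficient intestines, and its log2 difference came to -1.43 ± 0.17 (SE), adjusted p = 0.00839. The remaining one, 1438808_at, did not fall, with 58.6, 84.7 and 69.9 in double-deficient intestines against 15.8, 13.1 and 21.5 in Apc-deficient intestines, and 49.6, 17 and 32 in p53-deficient intestines against 28, 18.3 and 28.3 in controls (log2 difference 1.20 ± 0.36 (SE), adjusted p = 0.142, at least 2.27-fold higher over both backgrounds). On the first and second probe set every p53-null array stayed below all 6 arrays with wild-type p53, and on the remaining one the groups overlapped in the presence of Apc. Which of these probe sets lie in the deleted stretch of the gene was not determined here.

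Of 35622 probe sets tested with the limma additive fit, 140 were higher and 100 lower in p53-null intestines at an adjusted p under 0.05, which is 0.393% and 0.281% of those tested (0.674% together; 15.9% had an unadjusted p under 0.05, 7.93% in each direction). All 240 also had the same sign and an unadjusted p under 0.05 in each Apc background, a pattern that a fit over both backgrounds favours. In 222 of them the 3 p53-null arrays lay wholly above or wholly below the 3 matched arrays in both backgrounds. Of all probe sets 3.22% showed that pattern (1.69% upward and 1.53% downward). The same arrays chose the 240, so a call favours this pattern too and the contrast is no independent support. The median log2 difference was 1.59 among those higher (0.66 to 3.82) and -1.52 among those lower (-0.71 to -5.16). Many lay near background: 98 of the 240 (40.8%) were detected on none of the 9 arrays, against 22.9% of all probe sets tested. Another 57 were higher and detected on all 3 p53-deficient arrays, and 22 were lower and detected on all 6 arrays with wild-type p53. A single gene symbol could be given to 135 of the 240, for 129 genes. The split between both directions depended on the scaling: without any scaling between arrays 49 were called, 23 higher and 26 lower (46.9% higher, against 58.3% among the 240). With the digit code of the array names as a random block, 152 were called, all of them among the 240. A difference between the p53 effects of the 2 backgrounds, tested as an interaction, passed an adjusted p under 0.05 for 4 probe sets (0.0112%; 14.7% had an unadjusted p under 0.05).

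**Figure D1:**
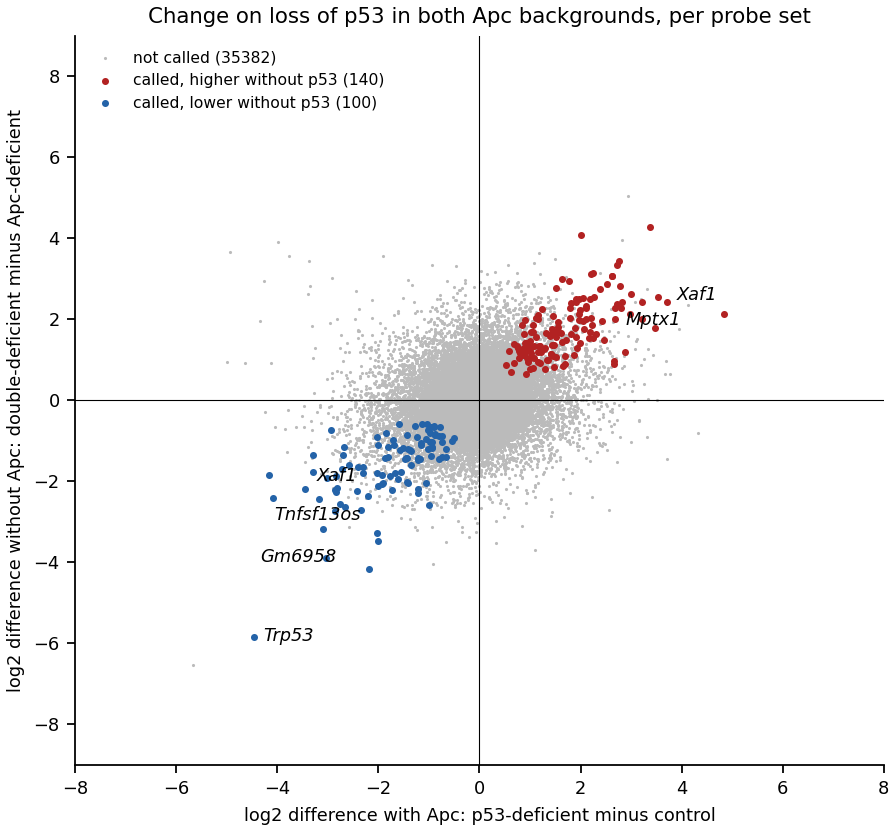
Each point is 1 of 35622 probe sets, placed by its log2 difference between p53-deficient and control intestines (horizontal) and between double-deficient and Apc-deficient intestines (vertical), 3 arrays per genotype. The 140 red and 100 blue points, called over both backgrounds, lie to the upper right and lower left of the crossing lines. A call over both backgrounds favours these places but does not require them. In the cloud of all points both differences correlate weakly (Pearson's r = 0.195 across probe sets, which are not independent replicates).

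The p53-deficient and control arrays share no array with the double-deficient and Apc-deficient arrays, so the log2 differences of the backgrounds come from separate mice. Their p-values are not independent, since the same fit gave both with a shared variance for each probe set. A probe set with a small variance therefore tends to a small p in both backgrounds. The letter code of the array names also follows p53 status in both. In p53-deficient against control intestines 122 probe sets passed an adjusted p under 0.05 (0.342%), of which 85 had the same sign in the other background and 46 also an unadjusted p under 0.05 there, while 8 passed that p with the opposite sign. In double-deficient against Apc-deficient intestines 65 passed (0.182%), with 50 of the same sign in the other background, 23 of these at an unadjusted p under 0.05, and 3 opposed at that p. Of all probe sets 15.5% and 16.5% reached that unadjusted p in either direction with and without Apc. Because of the shared variance, these shares cannot decide whether the counts at that p exceed chance. The sign does not depend on the variance, and 51.5% of all probe sets had the same sign in both backgrounds. An effect of whatever the letters stand for could also give the same sign in both. Only 5 probe sets passed the adjusted p in both backgrounds, all 5 of them among the 240, and 186 of the 240 passed in neither background taken alone.

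Among the named genes that fell, Gm6958, a predicted gene with no stated function, showed the largest change after Trp53. Its probe set 1426936_at read 27.2, 8.11 and 33.2 in p53-deficient intestines, against 215, 185 and 101 in controls, and 28.9, 14.7 and 10.9 in double-deficient intestines, against 288, 571 and 91 in Apc-deficient intestines. No p53-deficient array detected it, and with Apc intact p53-deficient intestines were lower by at least 8.19-fold (log2 difference over both backgrounds -3.46 ± 0.49 (SE), adjusted p = 0.0122). A second probe set of the gene, which by its design name can also match related transcripts, was lower as well (log2 difference -3.24; at least 10.7-fold with Apc intact).

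Rgcc, a regulator of the cell cycle that binds the mitotic kinase Cdk1, read 186, 115 and 119 in p53-deficient intestines, against 446, 339 and 719.6 in controls, and 806, 545 and 1056 in double-deficient intestines, against 1781, 1922 and 1496 in Apc-deficient intestines. Both p53-null groups lay below their own counterpart with no overlap, although the double-deficient arrays reached the control range. Over both backgrounds its log2 difference came to -1.48 ± 0.25 (SE), adjusted p = 0.0229 (-1.81 with Apc and -1.15 without it). Mzt1, a small subunit of the γ-tubulin complexes that nucleate spindle microtubules, read 92.3, 64.8 and 34.2 in p53-deficient intestines, against 221, 139 and 154 in controls, and 226, 175 and 287 in double-deficient intestines, against 372, 718 and 491 in Apc-deficient intestines (-1.34 ± 0.27 (SE), adjusted p = 0.0455). Cox18, which inserts a cytochrome c oxidase subunit into the inner mitochondrial membrane, read 492, 469.9 and 380.1 in p53-deficient intestines, against 653, 739 and 857 in controls, and 492, 672 and 718 in double-deficient intestines, against 1236, 1230.5 and 1343 in Apc-deficient intestines (-0.89 ± 0.16 (SE), adjusted p = 0.0271). In all 3 genes the p53-null groups were lower than their counterparts without overlap, and the group means were higher with Apc deleted at both p53 statuses, a difference not tested here.

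The signals of Ms4a4d, a membrane protein with 4 spanning segments, were 219, 242 and 203 in p53-deficient intestines, against 269.9, 519 and 414 in controls, and 153, 142 and 93.9 in double-deficient intestines, against 289, 341 and 422 in Apc-deficient intestines (-1.13 ± 0.22 (SE), adjusted p = 0.0393). Here the double-deficient intestines were the lowest group. Cxcl11, an interferon-induced chemokine that attracts T cells, had its lowest mean without both genes as well, at 40.3, 32.9 and 25.2 in double-deficient intestines, against 60.3, 97.3 and 103 in Apc-deficient intestines, and at 45.6, 39 and 51.2 in p53-deficient intestines, against 73.3, 69.8 and 70.4 in controls (-1.03 ± 0.21 (SE), adjusted p = 0.0488). The other decreases of this group were Gna12, a G protein α subunit (-1.06, adjusted p = 0.0397), Gpsm1, a modulator of G protein signalling (-1.07, adjusted p = 0.0177), Wdr91, a protein of endosome maturation (-0.86, adjusted p = 0.046), Rlbp1, a retinaldehyde-binding protein known from the retina (-1.0, adjusted p = 0.0416), and the pseudogene Clca4c-ps (-0.92, adjusted p = 0.0388). Other probe sets of Gpsm1, Wdr91 and Mzt1 that were not called include 1 each with a positive difference (0.14 to 1.68).

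The named genes that rose included a secreted protein, a keratin, membrane and metabolic proteins and transcription factors. Mptx1, mucosal pentraxin 1, a secreted protein of the gut epithelium, had 4155, 4259 and 7405 in p53-deficient intestines, against 892, 1384 and 399.9 in controls, and 4412, 6626 and 3396 in double-deficient intestines, against 443, 1082 and 1839 in Apc-deficient intestines. The lowest p53-null array was above the highest of the 6 arrays with wild-type p53, and the difference on the log2 scale came to 2.48 ± 0.38 (SE), adjusted p = 0.017 (2.68 with Apc and 2.27 without it). Krt12, a type I keratin known from the corneal epithelium, read 148, 281 and 144 in p53-deficient intestines, against 8.25, 9.50 and 3.30 in controls, and 38.7, 27 and 14.3 in double-deficient intestines, against 4.19, 11.4 and 3.76 in Apc-deficient intestines. On this probe set, 1419230_at, detection was found on all 3 p53-deficient arrays and on no array with wild-type p53, and the signal was at least 5.57-fold higher in p53-null intestines (3.48 ± 0.54 (SE), adjusted p = 0.017), with higher levels in the p53-deficient than in the double-deficient group, a difference not tested here. A further Krt12 probe set, which 1 array with wild-type p53 detected, was positive but not called (2.86, adjusted p = 0.133).

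Esrrg, an orphan nuclear receptor of oxidative metabolism, read 248, 199 and 437 in p53-deficient intestines, against 88.2, 62.4 and 63.8 in controls, and 349.9, 172 and 219 in double-deficient intestines, against 143, 69.8 and 71 in Apc-deficient intestines (1.69 ± 0.28 (SE), adjusted p = 0.0218). Its 3 probe sets were all positive, from 0.21 to 1.69 on the log2 scale. Onecut2, a homeodomain transcription factor of the proximal small intestine, read 577, 569 and 809.8 in p53-deficient intestines, against 165, 253 and 309 in controls, and 863, 775 and 580.1 in double-deficient intestines, against 469.6, 264 and 316 in Apc-deficient intestines (1.28 ± 0.22 (SE), adjusted p = 0.0236), and another probe set of the gene had 1.28 at an adjusted p of 0.0749. In contrast, Etnk1, an ethanolamine kinase of phospholipid synthesis, was called on 1 probe set that no array with wild-type p53 detected, with 55.5, 46.1 and 77.9 in p53-deficient intestines, against 4.50, 11.2 and 7.72 in controls, and 74, 63.5 and 98.2 in double-deficient intestines, against 18, 22.7 and 4.84 in Apc-deficient intestines, at least 4.82-fold higher in p53-null intestines (2.81 ± 0.37 (SE), adjusted p = 0.00939), while the median of its 5 probe sets was -0.09.

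Slc4a5, a sodium bicarbonate cotransporter, read 143, 197 and 94.7 in p53-deficient intestines, against 54.4, 13.6 and 10.7 in controls, and 48.9, 35.4 and 54.5 in double-deficient intestines, against 11.2, 9.0 and 7.93 in Apc-deficient intestines (2.55 ± 0.36 (SE), adjusted p = 0.0127), at least 4.92-fold higher without p53. One control array lay within the range of the double-deficient arrays. Micalcl, named for its likeness to the end of the MICAL proteins, was undetected with wild-type p53 as well (1.73 ± 0.29 (SE), adjusted p = 0.0218, at least 3.28-fold higher), as was probe set 1437996_s_at of Cnpy1, of the canopy family (2.14 ± 0.38 (SE), adjusted p = 0.0278, at least 2-fold). The other called Cnpy1 probe set was detected on 4 of the 6 arrays with wild-type p53 (0.99, adjusted p = 0.0384), and the uncalled one had 0.24. For Ccdc186, a coiled-coil protein, the called probe set had 1.49 ± 0.30 (SE), adjusted p = 0.046, at least 2.6-fold higher, while its other probe sets had -0.23 and -0.07.

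Naa35, a subunit of an N-terminal acetyltransferase, had 2.36 ± 0.39 (SE), adjusted p = 0.0218 on the called probe set and 0.05 to 0.38 on the other 5. Gm9222, a predicted gene read by a probe set that can match further transcripts, had a log2 difference of 1.25 ± 0.18 (SE), adjusted p = 0.0137, with scaled signals of 548 ± 108 in p53-deficient intestines against 171 ± 10 in controls and 268 ± 13.4 in double-deficient intestines against 150.3 ± 18.7 in Apc-deficient intestines (SD, n = 3 each). With Xaf1, described below, these genes make up the 12 largest increases.

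Some further increases are named after their values were seen, because they were detected on all 9 arrays or nearly all. Scpep1, a retinoid-inducible serine carboxypeptidase, read 2829, 1707 and 1973 in p53-deficient intestines, against 729, 1186 and 1004 in controls, and 1522, 2205 and 1733 in double-deficient intestines, against 656, 1014 and 736 in Apc-deficient intestines, with no overlap between the p53 statuses (1.17 ± 0.19 (SE), adjusted p = 0.0227). Neat1, the long noncoding RNA around which nuclear paraspeckles form, had signals of 5104, 4679.8 and 4212 in p53-deficient intestines, against 2674, 2456 and 2399 in controls, and 3995, 3295 and 2634 in double-deficient intestines, against 1612, 886 and 1288 in Apc-deficient intestines, and the lowest double-deficient array, 2634, lay within the control range (1.15 ± 0.19 (SE), adjusted p = 0.0218). Nono, an RNA-binding protein of paraspeckles, was called on 1 probe set (1.09, adjusted p = 0.0144), and Ogt, the enzyme that adds O-linked N-acetylglucosamine to nuclear and cytoplasmic proteins, on 2 (1.06 and 0.90). Ogt probe set 1425517_s_at read 648, 597 and 483 in p53-deficient intestines, against 368, 248 and 347 in controls, and 842, 917 and 864 in double-deficient intestines, against 342, 359 and 389 in Apc-deficient intestines, the 6 p53-null arrays all above the 6 others.

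**Figure D2:**
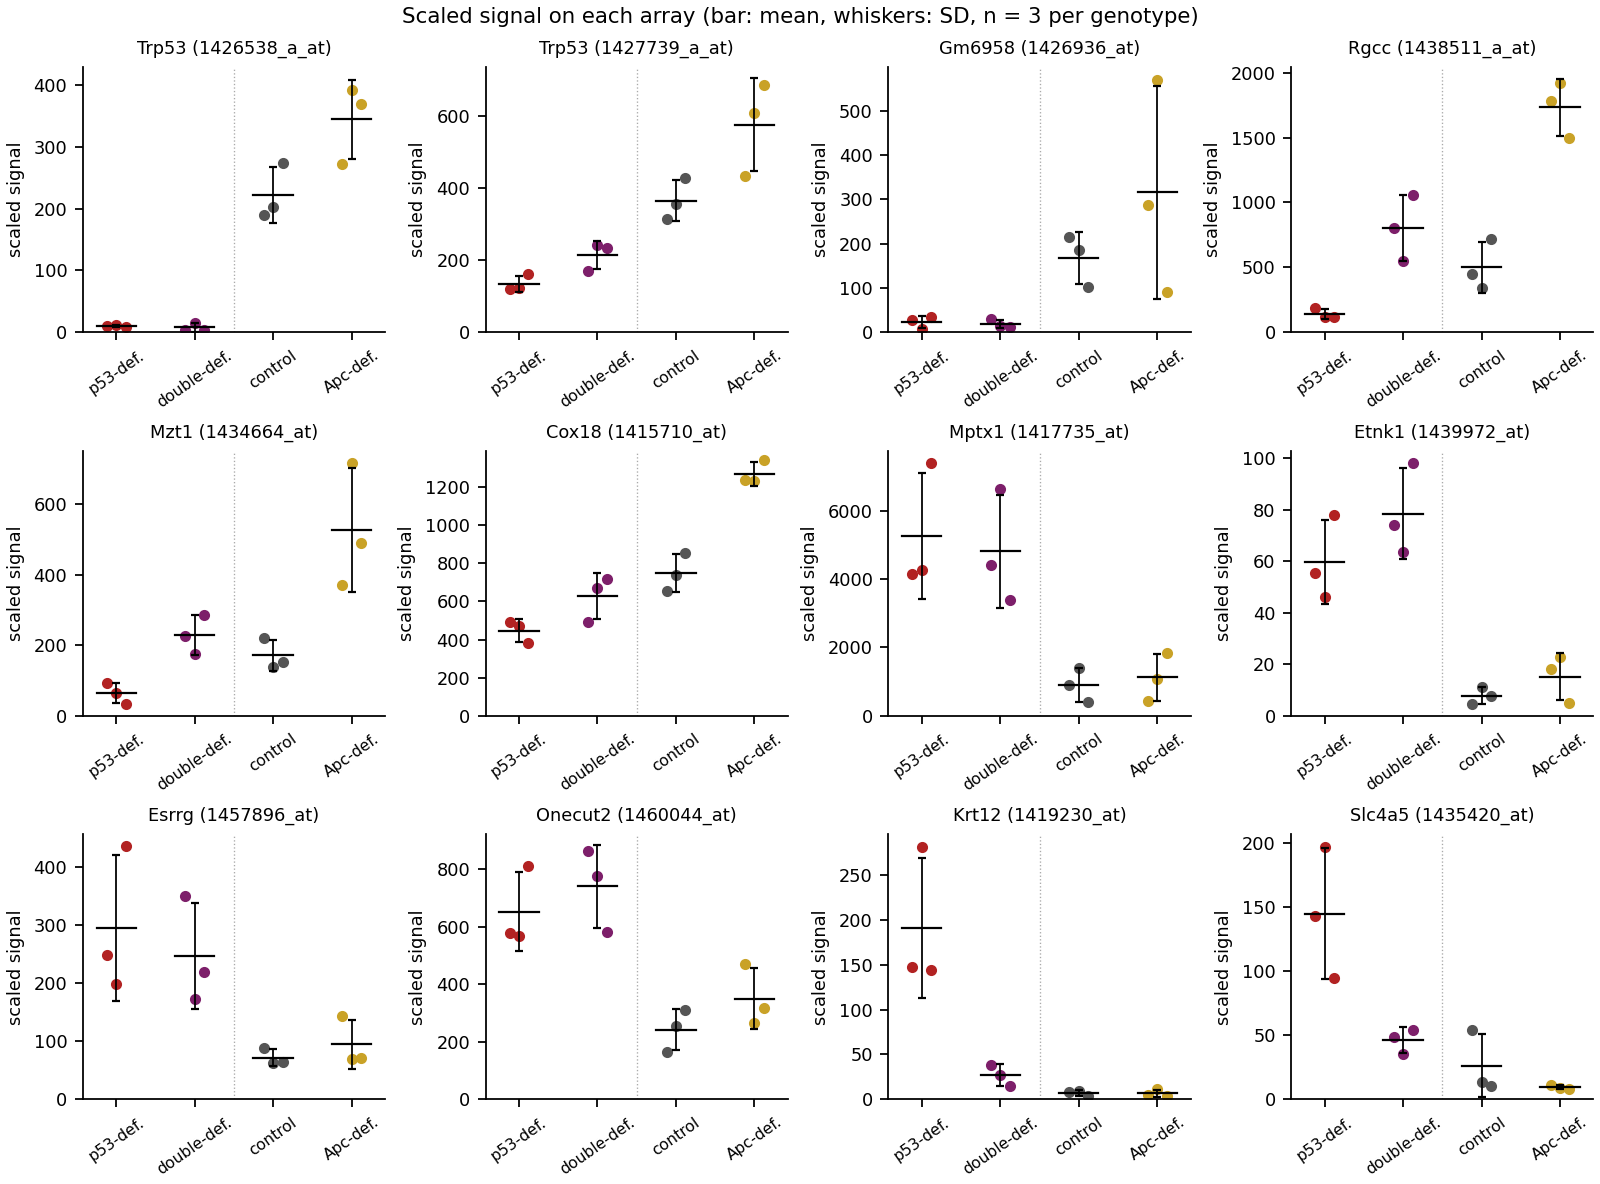
Scaled signal of 12 probe sets on each of the 12 arrays, with p53-deficient and double-deficient arrays left of the dotted line and control and Apc-deficient arrays right of it; points are arrays, bars are means and whiskers are SD (n = 3 per genotype), and each vertical axis starts at 0. Trp53 probe set 1426538_a_at stays at or under 15.1 on every p53-null array, Rgcc, Mzt1 and Cox18 also step up where Apc is lost, and Mptx1 is at or above 3396 on all 6 p53-null arrays.

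Genes near the deleted locus were looked at next. Within 10 Mb of the start of Trp53 on chromosome 11 (GRCm38.p6), 491 probe sets of 293 other genes were tested and 5 were called (1.02%), against 134 of the 27314 probe sets with a position in the genome (0.491%). Tnfsf13os, a transcript of the strand opposite the cytokine gene Tnfsf13, read 41.2, 57.6 and 44.6 in p53-deficient intestines, against 362, 343 and 268 in controls, and 20.9, 8.69 and 11 in double-deficient intestines, against 44.5, 84.9 and 109 in Apc-deficient intestines. It was undetected on all 3 p53-deficient arrays and detected on 4 of the 6 with wild-type p53, and with Apc intact p53-deficient intestines were lower by at least 6.8-fold (log2 difference over both backgrounds -2.66 ± 0.26 (SE), adjusted p = 0.00379). It was also lower in both Apc-deleted groups than in the matched group with Apc. Xaf1, an antagonist of the caspase inhibitor XIAP that interferon induces, was called in both directions. Its probe set 1443621_at read 1669, 817 and 771 in p53-deficient intestines, against 56.7, 92.8 and 90.0 in controls, and 1223, 717 and 2017 in double-deficient intestines, against 357, 123 and 254 in Apc-deficient intestines (3.07 ± 0.38 (SE), adjusted p = 0.00839), whereas 1443698_at read 233, 216 and 134 in p53-deficient intestines, against 837, 1252 and 996 in controls, and 749.9, 94.7 and 245 in double-deficient intestines, against 968, 1439 and 1325 in Apc-deficient intestines (-2.33 ± 0.40 (SE), adjusted p = 0.0236). Each probe set separated the p53 statuses without overlap, 1 upward and 1 downward, so that no direction can be given for the Xaf1 transcript. Slc6a4, the serotonin transporter, read 969, 876 and 698 in p53-deficient intestines, against 459, 478 and 287 in controls, and 335, 327 and 209 in double-deficient intestines, against 107, 137 and 178 in Apc-deficient intestines, higher in each p53-null group than in its counterpart (1.06 ± 0.20 (SE), adjusted p = 0.0388). Kdm6b, a histone demethylase whose gene starts 0.182 Mb from Trp53, was detected on 1 p53-deficient array and on no array with wild-type p53, at least 1.85-fold higher in p53-null intestines (0.89 ± 0.18 (SE), adjusted p = 0.0488), while its other probe sets had -0.27 and 0.42 and were not called.

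**Figure D3:**
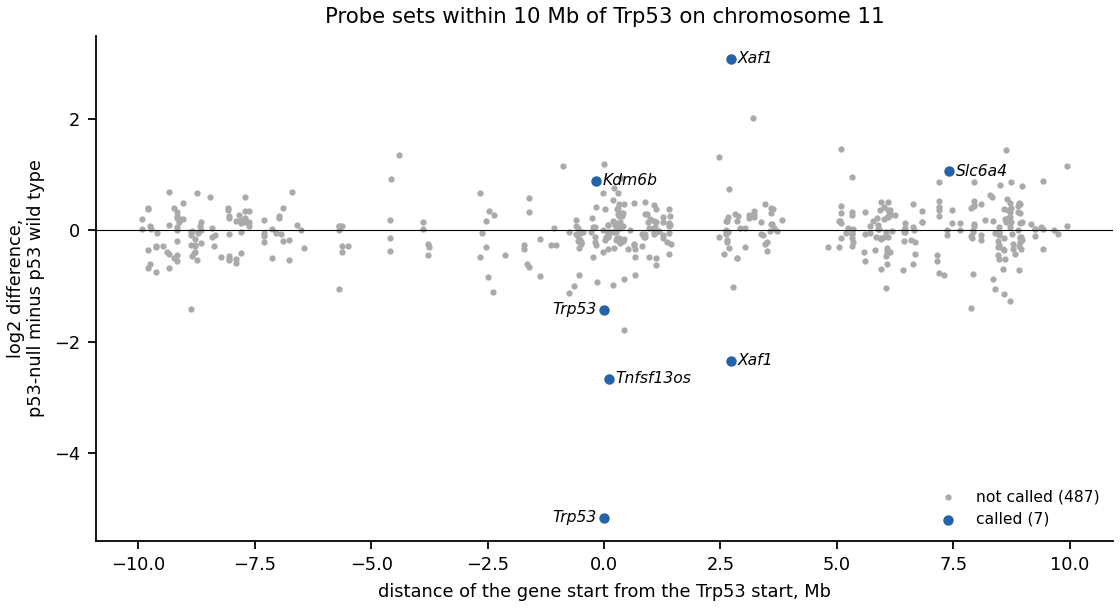
Log2 difference between p53-null and p53 wild-type intestines (vertical) of 494 probe sets by the distance of their gene's start from that of Trp53 in Mb (horizontal), with the 7 called probe sets in blue. The called probe sets are 2 of Trp53, 2 of Xaf1 at 3.07 and -2.33, Tnfsf13os at -2.66, Slc6a4 at 1.06 and Kdm6b at 0.89, while 487 others, among them a further Trp53 probe set, were not called.

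No gene on the lists of known p53 targets was called by its representative probe set. Of 46 genes on a list of targets in growth arrest, stress, repair and cell death, 44 were measured, each by its specific probe set of highest mean signal, and 0 passed the adjusted p of the limma fit, beside 65 of 15101 genes in all (0.43%). At an unadjusted p under 0.05, 8 had a negative difference and 1 a positive one, which is 18.2% and 2.27% of the 44, beside 7.01% and 5.62% of all genes. The median log2 difference over the targets was -0.16, with 0.05 in the presence of Apc and -0.31 in its absence, and over all genes it was 9.2e-05, with 0.09 and -0.09. Among growth arrest and stress targets 5 of 28 were negative at that level and 0 positive, and among cell death targets 3 of 16 were negative and 1 positive.

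Ccng1, cyclin G1, which recruits a phosphatase to Mdm2, had the smallest p of the targets, with 867, 592 and 713 in p53-deficient intestines, against 617, 869 and 1702 in controls, and 478, 460.4 and 357 in double-deficient intestines, against 1078, 952 and 1372 in Apc-deficient intestines (log2 difference -0.91 ± 0.27 (SE), adjusted p = 0.135). The groups with Apc overlapped, those without Apc did not, and all 3 probe sets of the gene were negative. Plk2, a kinase of the stress response, read 51.5, 115 and 16.8 in p53-deficient intestines, against 87.7, 88 and 248 in controls, and 119.6, 202 and 145 in double-deficient intestines, against 371, 276 and 308 in Apc-deficient intestines (-1.24 ± 0.42 (SE), adjusted p = 0.178; at least 2.69-fold lower with Apc intact, where no p53-deficient array detected it), with overlap in the presence of Apc. Phlda3, an inhibitor of Akt, had -0.74 (adjusted p = 0.209), the epoxide hydrolase Ephx1 -0.81 (0.211) and the adenylate kinase Ak1 -0.61 (0.205). Bbc3, the BH3-only death activator Puma, was detected on none of the 9 arrays (-0.61, adjusted p = 0.179).

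Cdkn1a, which encodes the Cdk inhibitor p21, was detected on all 9 arrays by its representative probe set, on which the groups overlapped in both backgrounds: 2393, 1605 and 1519.9 in p53-deficient intestines, against 1611, 2337 and 2366 in controls, and 1168, 1245 and 944 in double-deficient intestines, against 1066, 2233 and 1273 in Apc-deficient intestines (log2 difference -0.29 ± 0.21 (SE), adjusted p = 0.545). A second Cdkn1a probe set, detected on no p53-deficient array and on 4 of the 6 with wild-type p53, had -1.06 (adjusted p = 0.542), at -1.0 with Apc and -1.12 without it. Mdm2 read 852, 534 and 406 in p53-deficient intestines, against 568, 576 and 451 in controls, and 430.4, 428 and 464 in double-deficient intestines, against 484, 731 and 481 in Apc-deficient intestines (-0.11 ± 0.21 (SE), adjusted p = 0.839), with p53-null arrays inside the range of the others. For Casp6, an effector caspase, the representative probe set had 0.69 (adjusted p = 0.26), and another, 1458715_at, was called higher, at 263, 264 and 285 in p53-deficient intestines, against 163, 129 and 124 in controls, and 170.1, 133 and 135 in double-deficient intestines, against 64.2, 65.7 and 101 in Apc-deficient intestines (0.96 ± 0.16 (SE), adjusted p = 0.0229). Casp6 had the largest positive difference among the targets, opposite in sign to most of the list.

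**Figure D4:**
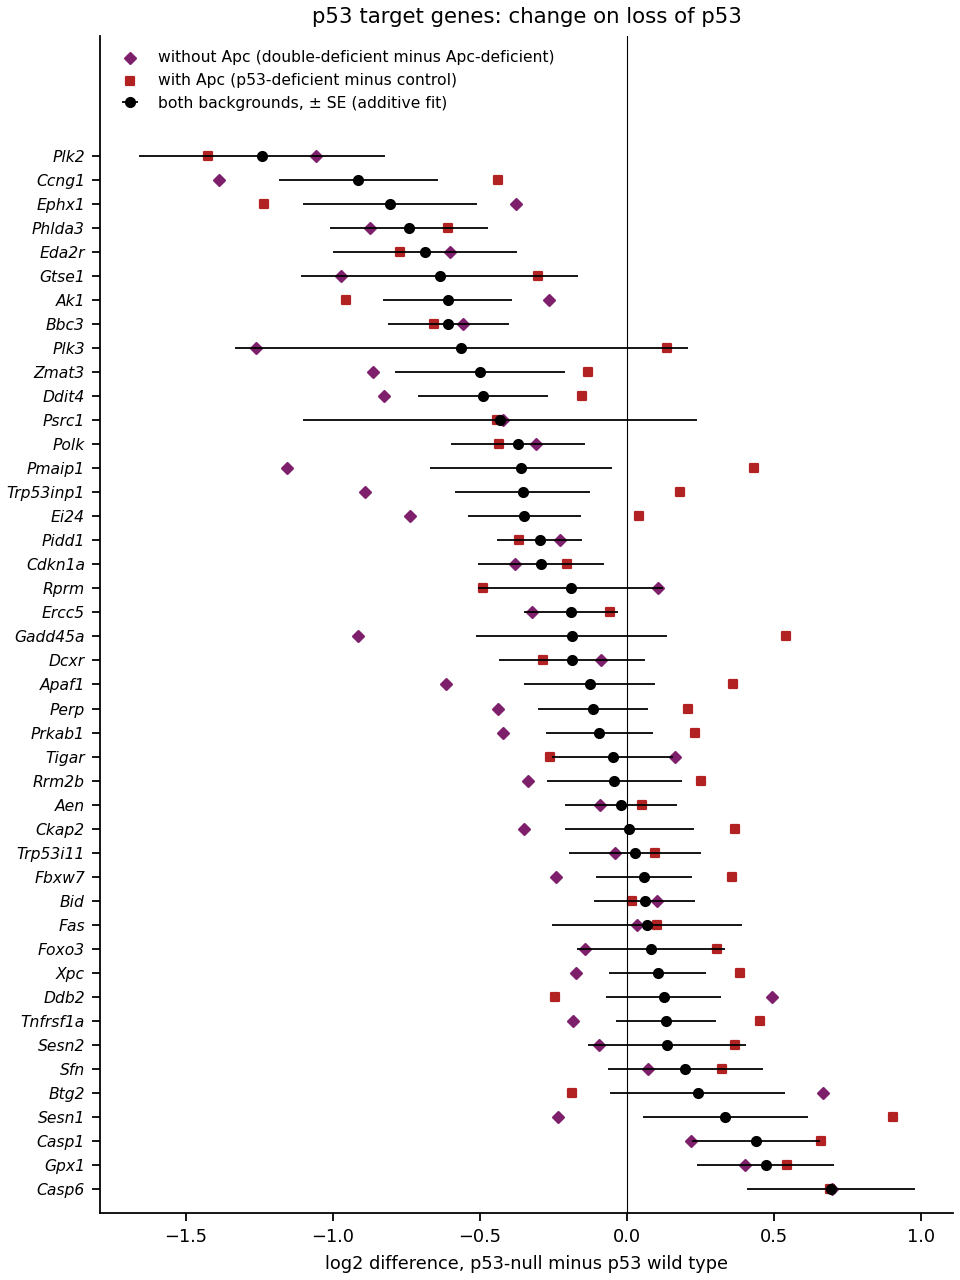
Log2 difference, p53-null minus p53 wild type, of 44 p53 target genes by their representative probe set: circles with bars are the additive fit over both backgrounds ± SE (6 arrays against 6), diamonds the background without Apc and squares the background with Apc. Plk2 at -1.24 and Ccng1 at -0.91 lie at the top and Casp6 at 0.69 at the bottom, and no gene of the plot passed an adjusted p under 0.05.

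Promoters of 3 genes are shown because they hold the p53 half-site consensus, the element that p53 binds in pairs. A window of 300 bases (250 before to 50 after the RefSeq start, GRCm38.p6) held the half-site in 8.36% of 32851 promoters, in 8 of the 58 promoters found for 46 of the 61 genes called lower (13.8%), in 7 of the 84 found for 61 of the 69 genes called higher (8.33%), and in 11 of the 51 found for 38 of the 46 p53 targets (21.6%). The 8 include the promoter of Trp53, the deleted gene itself, promoters of Gpsm1 and that of Xaf1, a gene called in both directions. The half-site reads as the same consensus on both strands, and a match is not a bound site. Half-sites are in capitals in the promoters of Xaf1 (chr11:72301379-72301678, plus strand), whose probe sets moved in opposite directions, of Ms4a4d (chr19:11536544-11536843, plus strand), which fell, and of Cdkn1a (chr17:29090729-29091028, plus strand), which was not called.
Xaf1: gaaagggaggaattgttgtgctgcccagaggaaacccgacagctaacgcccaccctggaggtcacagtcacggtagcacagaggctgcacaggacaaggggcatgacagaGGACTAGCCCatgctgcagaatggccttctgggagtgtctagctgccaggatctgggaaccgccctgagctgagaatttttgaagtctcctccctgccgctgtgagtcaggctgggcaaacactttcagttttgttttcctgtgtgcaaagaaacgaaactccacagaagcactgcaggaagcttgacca
Ms4a4d: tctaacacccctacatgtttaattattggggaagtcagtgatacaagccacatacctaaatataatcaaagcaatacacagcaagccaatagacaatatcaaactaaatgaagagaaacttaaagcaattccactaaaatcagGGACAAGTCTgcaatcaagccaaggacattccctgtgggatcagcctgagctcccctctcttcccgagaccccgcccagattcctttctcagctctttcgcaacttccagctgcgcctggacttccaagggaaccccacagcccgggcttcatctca
Cdkn1a: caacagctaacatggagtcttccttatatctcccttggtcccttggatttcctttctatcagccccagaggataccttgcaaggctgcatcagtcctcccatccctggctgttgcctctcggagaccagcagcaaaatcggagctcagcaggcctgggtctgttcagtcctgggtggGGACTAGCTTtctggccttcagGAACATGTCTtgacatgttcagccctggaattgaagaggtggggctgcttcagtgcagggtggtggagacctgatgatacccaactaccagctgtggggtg
The half-site began 140 bases before the start in Xaf1 and 107 in Ms4a4d, and Cdkn1a had 2, beginning 73 and 51 bases before its start.

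Regulators and relatives of p53 gave no call among 17 measured (unadjusted p under 0.05 for 1 positive and 1 negative). Hipk2, a kinase that phosphorylates p53, had 0.54 (adjusted p = 0.135) and Rchy1, a ubiquitin ligase for p53, -0.42 (0.245). Cdkn2a, which encodes Arf, an inhibitor of Mdm2, had -0.14 (0.768). Of 21 Wnt targets 0 were called, with 5 positive and 1 negative at an unadjusted p under 0.05, that is, at the level which 5.62% of all genes reached upward and 7.01% downward.

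Axin2, a feedback inhibitor of Wnt signalling, read 438, 547 and 470.1 in p53-deficient intestines, against 344, 392 and 313 in controls, and 2134, 2856 and 2268 in double-deficient intestines, against 1124, 2060.3 and 1231 in Apc-deficient intestines (0.62 ± 0.18 (SE), adjusted p = 0.133). Lect2, a secreted protein and Wnt target, was detected on none of the 9 arrays and read 123, 451 and 215 in double-deficient intestines, against 8.92, 47.8 and 41.1 in Apc-deficient intestines, and 9.29, 9.94 and 6.81 in p53-deficient intestines, against 6.30, 5.14 and 4.14 in controls (1.94 ± 0.54 (SE), adjusted p = 0.112 over both backgrounds). Its difference was 3.14 without Apc and 0.74 with Apc (unadjusted p = 0.25 for the last). In both genes each p53-null group lay above its counterpart without overlap, and neither difference over both backgrounds passed the adjusted p. Slc39a14, a zinc transporter named by the study, had 0.56 (0.105) over both backgrounds. Myc (0.07), Cd44 (0.06) and Ccnd2 (-0.09) were close to 0 over both, each at an adjusted p of 0.811 or more. The study's RT-PCR, on intestines taken 4 days after induction and not 5, found CyclinD2, Mash2, Lef1 and CD44 higher in the absence of p53 once Wnt signalling was active. It also found Axin2 and Lect2 more strongly induced without both genes, Slc39a14 and Habp2 changed, and c-Myc and Frizzled7 unchanged. On the arrays without Apc, Axin2 had 0.76, Lect2 3.14, Slc39a14 0.61, Habp2 2.30, Myc -0.004 and Fzd7 0.35. Habp2 was detected on 1 p53-deficient array and 1 array with wild-type p53. Without Apc, Cd44 had 0.26 and Ccnd2 -0.05 here. Lef1 had 0.48 without Apc and -0.60 with Apc, and Ascl2 (Mash2) 0.25 and -1.14. Neither passed limma's interaction test (adjusted p = 0.193 and 0.254).

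Markers of cell types were counted in the same way, and by the representative probe set 0 were called on any list. The share of all genes at an unadjusted p under 0.05, 5.62% upward and 7.01% downward, is the level to set the counts below against. Goblet cell genes had 5 of 11 positive and 1 negative at an unadjusted p under 0.05. Clca1, a secreted mucus-processing protein, read 5653, 7336 and 4833 in p53-deficient intestines, against 2977, 2468 and 3937 in controls, and 1410.0, 1306 and 716 in double-deficient intestines, against 120.2, 291 and 515 in Apc-deficient intestines (1.5 ± 0.36 (SE), adjusted p = 0.0787), and Muc2, the main gel-forming mucin, had 0.66 (0.12). The negative one was Retnlb, a secreted resistin-like protein, named after its value was seen, at -6.09 ± 1.97 (SE, adjusted p = 0.163; -5.66 with Apc and -6.53 without it), and Spdef (-0.26) and Agr2 (-0.06) were also below 0. The summed scaled signal of the 11 genes was 16832 to 54713 on p53-null and 17389 to 40148 on wild-type arrays. Tuft cell genes had 3 of 8 positive at that p, led by Sh2d6 (1.47, at least 2.77-fold, adjusted p = 0.0648) and the cation channel Trpm5 (0.96, 0.0848), while 4 of the 8 were below 0, Hpgds (-0.51), Il17rb (-0.22), Pou2f3 (-0.10) and Dclk1 (-0.07). Their summed scaled signal over 8 genes was 768 to 1442 on p53-null arrays and 520.3 to 948 on the others. For enterocyte genes 20 of 26 differences were positive and for Paneth cell genes 8 of 8, with 2 and 3 at an unadjusted p under 0.05. The median difference was 0.53 with Apc and -0.15 without it for enterocyte genes, and 0.85 with Apc and -0.09 without it for Paneth cell genes, where Lyz1, Mmp7, Reg3b and Reg3g were negative without Apc. The median log2 signal of the enterocyte genes was 9.76 to 12.72 on p53-null and 10.05 to 12.22 on wild-type arrays, and that of the Paneth cell genes 11.34 to 12.55 and 10.38 to 12.75. Of 11 genes of the proximal small intestine 10 were positive, 3 at that p, among them Adh1, an alcohol dehydrogenase (0.85, 0.147). The part of cell type shares in the 240 calls was not tested.

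Interferon response genes were negative in 17 of 17, with a median of -0.51 (-0.35 with Apc and -0.90 without it) and 1 at an unadjusted p under 0.05. Their median log2 signal was 10.29, 8.05 and 10.32 on double-deficient against 10.31, 10.33 and 10.57 on Apc-deficient arrays. Only double-deficient replicate 2 was far below the Apc-deficient arrays. With Apc it was 10.17, 8.88 and 9.06 on p53-deficient against 8.83, 10.34 and 9.38 on control arrays. The groups overlapped in both backgrounds. Targets of the aryl hydrocarbon receptor, through which β-naphthoflavone acts on the Cre driver, were negative in 6 of 7 genes, 4 of them at an unadjusted p under 0.05. Cyp1a1, the cytochrome P450 induced by such ligands, read 3687, 96.8 and 360.3 in p53-deficient intestines, against 2163, 3549 and 3581 in controls, and 232, 60.3 and 73.3 in double-deficient intestines, against 1959, 3772 and 94 in Apc-deficient intestines (-2.86 ± 0.96 (SE), adjusted p = 0.177). One p53-deficient array was as high as the controls and 1 Apc-deficient array as low as the double-deficient ones. The part of this difference in the other results was not tested. Smooth muscle genes were positive in 11 of 12 with 0 at that p, proliferation genes had 1 positive and 2 negative of 28, and the clock genes, in 16 measured, none, although a further Per3 probe set was among the 240.

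How far the counts rest on single arrays was seen by leaving each out. The 240 became 101 to 341, with fewest without p53-deficient replicate 3 or double-deficient replicate 2 and most without p53-deficient replicate 1. They were over 1.5 times fewer without p53-deficient replicate 2 (126) or 3 (101), double-deficient replicate 2 (105) or 3 (119), control replicate 1 (143), 2 (114) or 3 (128), and Apc-deficient replicate 1 (150). Without both arrays that held pancreas transcripts, 26 were called, 14 higher and 12 lower, and 23 of the 26 were among the 240. In that fit all 240 kept their sign and an unadjusted p under 0.05, and their median absolute log2 difference was 1.55, against 1.57 with all arrays. The 240 were chosen by their p on arrays that include those of that fit, so this outcome was favoured in advance and is no independent support.

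In every fit that left out 1 array 74 probe sets, of 40 named genes, stayed called, and 4 probe sets were called in all 23 alternative settings that were fitted per probe set: Trp53 1426538_a_at, Tnfsf13os, Il17d and Zc3h12c. Il17d, a cytokine, and Zc3h12c, a ribonuclease of the Regnase family, are named for this after their values were seen. Il17d read 21.7, 16 and 19.4 in p53-deficient intestines, against 53, 43 and 36.8 in controls, and 38.6, 62 and 44.6 in double-deficient intestines, against 119, 143 and 137 in Apc-deficient intestines (-1.35 ± 0.17 (SE), adjusted p = 0.00915), and Zc3h12c 14.9, 14.2 and 15.4 in p53-deficient intestines, against 34.5, 39.4 and 27.6 in controls, and 20.7, 13.1 and 12.1 in double-deficient intestines, against 40.4, 44.9 and 36.3 in Apc-deficient intestines (-1.31 ± 0.17 (SE), adjusted p = 0.00939). Their p53-null arrays lay below the matched arrays in both backgrounds, and the Il17d probe set can match other genes. Gm6958, Mptx1, Etnk1, Gm9222, Slc4a5, Ogt 1425517_s_at, Nono and Xaf1 1443621_at were called in all 12 fits but not without both pancreas arrays (adjusted p = 0.056 for Gm6958 and 0.0611 for Mptx1). Krt12 was called in all 12 fits and without both pancreas arrays, but not with signals under 20 set to 20 (adjusted p = 0.0825). Neat1 was lost without double-deficient replicate 2 (adjusted p = 0.0576), Gpsm1 without p53-deficient replicate 3 (0.0509), and Esrrg without control replicate 2 or 3 (up to 0.0574). Naa35 kept its call in 9 of the 12 fits, and Rgcc, Onecut2, Micalcl and Scpep1 kept theirs in 8, each lost without p53-deficient replicate 3 or double-deficient replicate 2, among others (adjusted p up to 0.0599 for Rgcc). Xaf1 1443698_at kept its call in 7, Casp6 1458715_at in 6, Cox18 and Cnpy1 1437996_s_at in 5, Mzt1, Ms4a4d, Gna12, Rlbp1, Wdr91, Ccdc186 and Slc6a4 in 2, Kdm6b in 1, and Cxcl11 and Clca4c-ps in 0 (adjusted p up to 0.109 for Cxcl11).

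**Figure D5:**
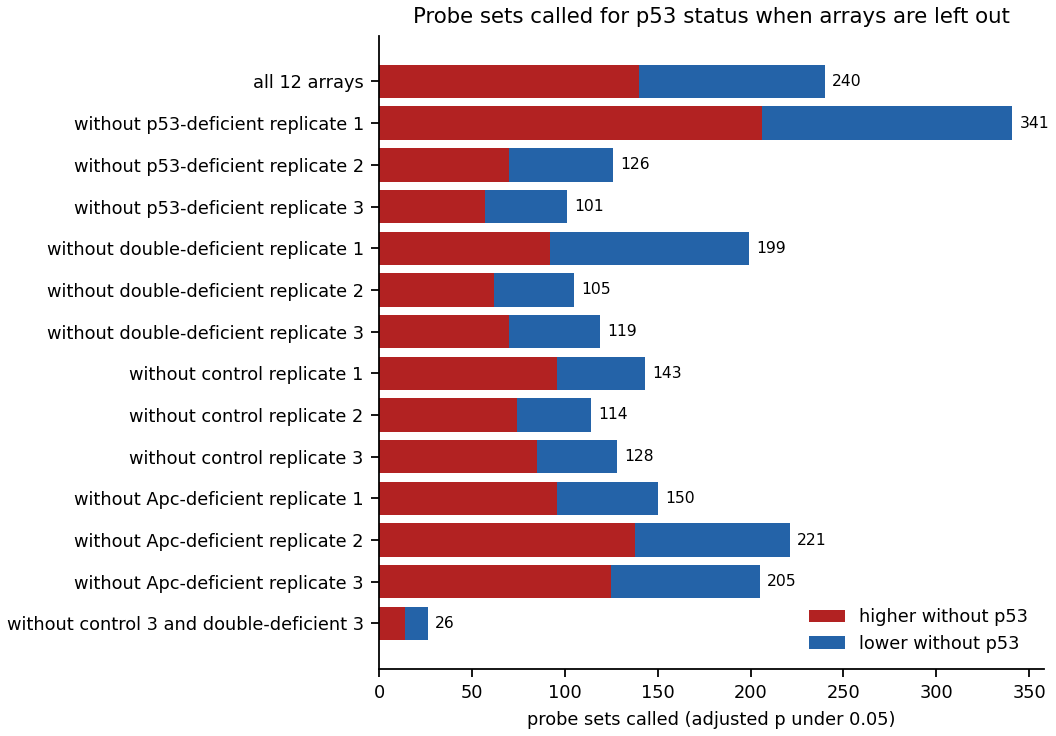
Number of probe sets called for p53 status (horizontal, adjusted p under 0.05; red higher and blue lower in p53-null intestines) with all 12 arrays, without each array in turn, and without the control and double-deficient array that held pancreas transcripts. The count is 240 with all arrays, 101 to 341 without 1 array and 26 without the last pair.

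Values on either side of the threshold were close: Cnksr2, a scaffold protein of the Ras pathway, was the last gene with a symbol inside it, with a log2 difference of -1.40 at an adjusted p of 0.0488, and Mdp1, a magnesium-dependent phosphatase, with 0.81 at 0.051, the first outside.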

How the data were processed

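RNA from 12 induced mouse small intestines was hybridised to Affymetrix mouse arrays of 45101 probe sets, 1 array per mouse by the labels. The authors deposited a linear signal intensity before normalisation and a detection p-value for each probe set and array, and the sources used here do not name the software that made them. They also deposited a normalised score of 34271 probe sets, screened and normalised with MaxD/View, which differed by at most 0.0715 on any array from the log signal less its mean and divided by its SD. The detection columns of the 3 double-deficient arrays name the genotype but no mouse, so these 3 columns were not used.

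After the 64 control probe sets were dropped, a detection p under 0.2 was required on 1 or more of the 9 arrays with a usable detection column, which left 35622 probe sets and could drop transcripts present only in double-deficient intestines. Signals under 1 (775 values) were set to 1 and taken to log2, each array was brought to a common mean, and p53 status was tested with limma 3.58.1 in R 4.3.3 with Apc status as a block (9 residual degrees of freedom), with Benjamini-Hochberg adjustment over all probe sets and calls at an adjusted p under 0.05. The effect within each Apc background came from a fit with a mean per genotype. The fit was tested on simulated data with the fitted means and spread of these arrays and independent noise. Of 100 probe sets given a log2 change of 1 in both backgrounds, 27 were called, and of 100 given a change of 2, 69. Of 35422 without a change, 7 were called. A gene that was not called can therefore still have changed. P-values weigh a difference against the spread between these mice and their arrays, and cannot allow for whatever the letter code stands for. Gene names came from the platform annotation (27437 probe sets with 1 symbol, 749 with several, 7436 with none), and positions and promoters from RefSeq (GRCm38.p6). Without depth, precision is limited by the number of arrays.

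Named were the 12 largest increases and decreases among called probe sets with 1 symbol and detection on all usable arrays of a p53 status, the p53 probe sets, called genes within 10 Mb of Trp53, up to 4 members of each of 28 gene lists by smallest p, genes the study named and the smallest interactions. The comparison, the lists and the 2 arrays left out were chosen with earlier results of these data known. Alternatives were another scaling, screen, minimum, fit or probe set rule, and leaving out arrays.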

Additional observations from a re-analysis of the deposited data

Results flagged for a closer look

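The p53 effect differed between the Apc backgrounds, by limma's test of the interaction at an adjusted p under 0.05, for 4 probe sets. Values are scaled signals, and each interaction is the log2 difference without Apc minus that with Apc. Asrgl1, an asparaginase-like enzyme, had 65.8, 78.5 and 74.2 in p53-deficient intestines, against 12.9, 9.93 and 18.3 in controls, and 72.8, 92.2 and 91.8 in double-deficient intestines, against 198, 178 and 156 in Apc-deficient intestines (interaction -3.50, adjusted p = 0.0224), so that it was higher in p53-null intestines with Apc and lower without it. Eif1ax, a translation initiation factor, had 184, 142 and 158 in p53-deficient intestines, against 20.5, 30.0 and 26.2 in controls, and 360.0, 299 and 287 in double-deficient intestines, against 294, 294 and 409.8 in Apc-deficient intestines (-2.74, adjusted p = 0.0423). The controls stood apart from the other 3 genotypes here. Zfp81, a zinc finger protein, had an interaction of -3.24 (adjusted p = 0.0489), with -0.63 without Apc and 2.61 with Apc, and probe set 1441418_at, which has no gene symbol, one of 4.29 (adjusted p = 0.0276), with 3.35 and -0.94. Leaving out 1 array gave 0 to 111 such probe sets.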

How the results depend on the processing

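The 240 calls became 49 without scaling between arrays, 456 with signals under 20 set to 20, 438 with a mean per genotype, 487 with array weights, 152 with the digit code as a random block (chosen after seeing the data), 26 without both arrays that held pancreas transcripts, and 101 to 341 without 1 array. Those alike in both backgrounds, also 240, became 49, 456, 429 with array weights, 152, 26, and 101 to 340 without 1 array. Quantile normalisation (244, of which 211 were shared), the normalised table (250), no screen (356), detection p under 0.05 on at least 3 arrays (168) and a variance trend (340) stayed within 1.5 times. The 4 interactions became 11 with quantile normalisation and 0 to 111 without 1 array, the 111 without Apc-deficient replicate 2. Of 3671 refitted values of the named probe sets, 3420 kept the direction and side of the threshold, 228 lost a call, 18 gained one and 5 changed sign. The changed signs came with 1 value per gene, its median probe set, at -0.095 for Etnk1, -0.21 for Ccdc186, 0.52 for Wdr91, 0.37 for Xaf1 1443698_at and -2.57 for Trp53 1438808_at, whose genes have other probe sets of opposite sign. The cause of the other changes was not tested. No paired analysis was possible because the labels give no replicate numbers shared between groups. Signals near background limit 98 of the 240 calls, which no array with a detection value detected.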
